A study of Mus musculus with 12 samples.

Results

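Thyroid hormone acts on the brain through a chain of transport, activation, binding and nuclear reception, and 8 genes of this chain were followed in the prefrontal cortex (PFC) of mice raised with and without microbes. They were Ttr, Slco1c1, Dio2, Crym, Thra, Thrb, Klf9 and Hr, chosen by name as carriers, transporters, deiodinase, binding protein, receptors and cortical target genes, and all 8 were found among the 41388 genes of the count table. The choice was made with earlier results of the same data known, so their fold changes are given as a description. The RNA came from the medial PFC of male Swiss Webster mice aged 10 weeks, with 4 libraries in each of 3 groups and RNA from 2 to 3 animals pooled in each library. Conventionally raised (CON) mice lived in a standard animal unit. Germ-free (GF) mice had no microbes and lived in gnotobiotic isolators. Mice of the exGF group were raised germ-free, left the isolators on postnatal day 21 and were housed beside CON mice, whose environment colonized them. Microbial status and housing in isolators cannot be told apart in GF mice, and the exGF mice shared their early life with GF mice and their adult housing with CON mice. The columns of the exGF libraries are called GFR1 to GFR4 here because their numbers were not matched to the labelled exGF samples.

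Thyroxine, the main hormone in blood, is carried by transthyretin (Ttr) in cerebrospinal fluid and is taken up across the blood-brain barrier and into astrocytes by transporters such as Oatp1c1 (Slco1c1). In astrocytes the type 2 deiodinase (Dio2) turns thyroxine into the active triiodothyronine, which neurons bind in the cytosol with mu-crystallin (Crym) and in the nucleus with the receptors Thra and Thrb. The receptors sit on response elements built from the hexamer AGGTCA and switch target genes such as Klf9, a zinc finger transcription factor of neuronal differentiation, and Hr, a corepressor that itself binds these receptors.

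The start regions of the members were searched for this hexamer, because it is the letter sequence that the receptors of the list recognize. RefSeq start-site windows of GRCm38.p6 were at hand for 4 of the 8 members (5 windows of 250 bases before a start, with 2 starts of Thrb), and none for Crym, Thra, Ttr and Hr. AGGTCA, read on both strands, was found in 1 of the 5 windows, at 184 bases before a start of Thrb, and in 14.0% of the 32851 windows of all genes. The direct repeat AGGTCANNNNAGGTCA was in 5 of all windows and in none of the members'. A match is a description of letters and not a binding site, and a window without one says only that these letters are not in it. The window of Thrb at chr14:17660710-17660959 on the plus strand and that of the target gene Klf9 at chr19:23140976-23141225 on the plus strand are shown, as a receptor with the hexamer and a target without it. Capitals mark the hexamer.
Thrb: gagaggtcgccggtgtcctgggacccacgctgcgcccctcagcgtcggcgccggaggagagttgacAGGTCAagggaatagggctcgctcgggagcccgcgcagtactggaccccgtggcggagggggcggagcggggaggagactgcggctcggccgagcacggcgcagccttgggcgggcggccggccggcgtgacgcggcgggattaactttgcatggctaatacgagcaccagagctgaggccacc
Klf9: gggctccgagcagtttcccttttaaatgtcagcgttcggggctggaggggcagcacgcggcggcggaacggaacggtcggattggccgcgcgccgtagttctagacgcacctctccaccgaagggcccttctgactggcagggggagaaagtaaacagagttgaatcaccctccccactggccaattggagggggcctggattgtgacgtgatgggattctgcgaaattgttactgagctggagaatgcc

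Crym was the member with a difference beyond the spread of the libraries between GF and CON mice. Its level was lower in every GF library than in every CON library, and 3 of the 4 exGF libraries were also below all CON libraries. Ttr, Slco1c1, Dio2, Thra, Thrb, Klf9 and Hr were not called between GF and CON mice, and no member was called in the other comparisons. Libraries held 22757169 to 29134760 counts on genes in CON, 13280926 to 23465074 in GF and 22702599 to 28615407 in exGF mice, and the lowest was GF replicate 1. Levels below are CPM, the read counts of a gene scaled to the size of its library with TMM factors, with the mean ± SD of 4 libraries, and differences are log2 fold changes with their standard error (SE) from edgeR. Genes with an adjusted p under 0.1 over all genes tested are termed called. By that measure 1 of 8 members was called between GF and CON mice, where 0.251% of 15542 tested genes were called. Crym is the called gene, and since the list was formed with this result known, nothing is read from the count. For exGF against CON mice 0 members were called by edgeR, limma-voom or DESeq2 (0.0696% of 15813 genes called by edgeR), with 3 members (Crym, Thra and Hr) at an unadjusted p under 0.05, as were 5.33% of all genes tested. For exGF against GF mice 0 members were called by the same tools (0% of 15569 genes called by edgeR), and 0 had an unadjusted p under 0.05. No member separated the exGF from the GF libraries, as 3.32% of all genes tested did. In these bulk samples fewer cells of a type and less RNA per cell cannot be told apart.

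**Figure D1:**
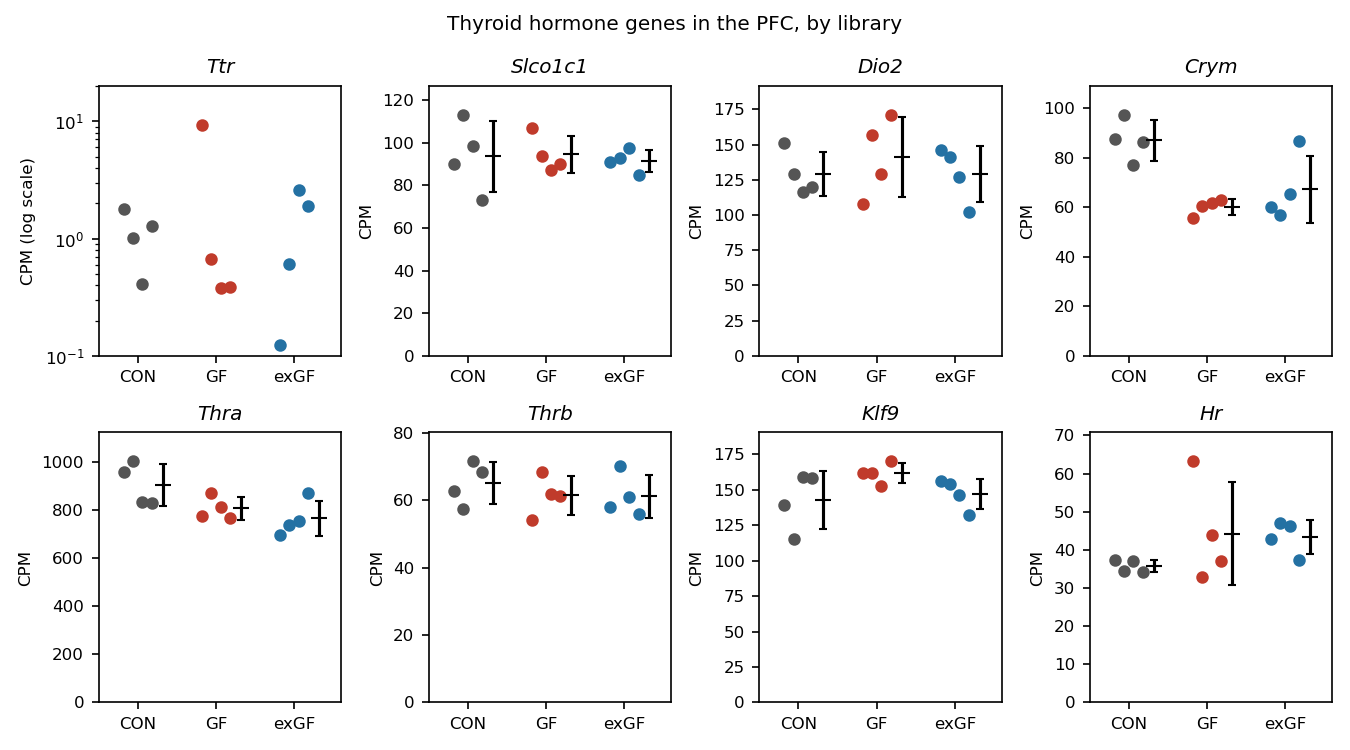
Levels of the 8 genes by library (y axis, CPM, each panel with its own scale; Ttr on a log scale) in CON, GF and exGF mice (x axis). Each point is 1 library, drawn within a group in the order replicate 1 to 4 or GFR1 to GFR4, and bars are mean ± SD of 4 libraries (not drawn for Ttr). The 4 GF points of Crym lie between 55.5 and 62.8 CPM, below the lowest CON point at 76.9 CPM.

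Per kilobase of exon, Thra was the most abundant member, with 196 CPM per kb in CON mice. Klf9 (29.7 CPM per kb), Crym (25.7), Dio2 (22.2) and Slco1c1 (18.1) formed a middle range in CON mice. In this range each gene overlapped its neighbour in the order over the 4 libraries. Thrb (8.79 CPM per kb), Hr (5.17) and Ttr (0.955) followed, each below the gene before it in every CON library. In GF mice the order of Crym (17.7 CPM per kb) changed, as it stood below Dio2 (24.3) and Slco1c1 (18.2), although its libraries overlapped those of Slco1c1.

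Ttr (ENSMUSG00000061808), whose product carries thyroxine and retinol-binding protein and is made in the brain mainly by the choroid plexus, was near the lower limit of detection, with 3 to 125 counts per library. Its levels were 1.80, 1.02, 0.409 and 1.29 CPM in CON replicates 1 to 4. They were 9.29, 0.671, 0.376 and 0.385 CPM in GF replicates 1 to 4, and 0.124, 0.604, 2.58 and 1.91 CPM in GFR1 to GFR4. GF replicate 1 stood far above all other libraries, while the other 3 GF libraries lay within the range of the exGF libraries, and the groups overlapped. The log2 difference between GF and CON mice was 1.16 (SE 0.84), and without GF replicate 1 it was -1.21 (SE 0.50). Against GF mice, exGF mice differed by a log2 value of -0.90 (SE 0.93), which turned to 1.45 (SE 0.72) without GF replicate 1. Against CON mice the exGF difference was 0.24 (SE 0.62). The values also depended on the method with all libraries kept. Between GF and CON mice the log2 difference was -0.13 in limma-voom, 0.06 in DESeq2 on all 12 libraries, which shrinks fold changes, and 0.26 in edgeR with a replicate block. Between exGF and GF mice it was -0.04 in limma-voom and -0.03 in DESeq2 on the 8 libraries. No direction is given for Ttr.

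Markers of the choroid plexus were summed as a measure of that tissue in each library. None of the 11 markers was at 0 in every library, and their sum was 7.95 to 9.75 CPM in CON, 5.05 to 9.14 CPM in GF and 5.76 to 8.64 CPM in exGF libraries. The highest GF sum, 9.14 CPM, was in GF replicate 1, the library with the most Ttr. The other 3 GF libraries held 5.05 to 5.86 CPM of the markers. CON replicate 3 had the highest sum of all libraries (9.75 CPM) and 0.409 CPM of Ttr. Most of the sum came from Kl and F5, with means of 3.77 and 1.76 CPM in CON mice. Each other marker had a mean under 1 CPM there, so the sum says little of these. The part of choroid plexus RNA in the Ttr values was not tested.

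**Figure D2:**
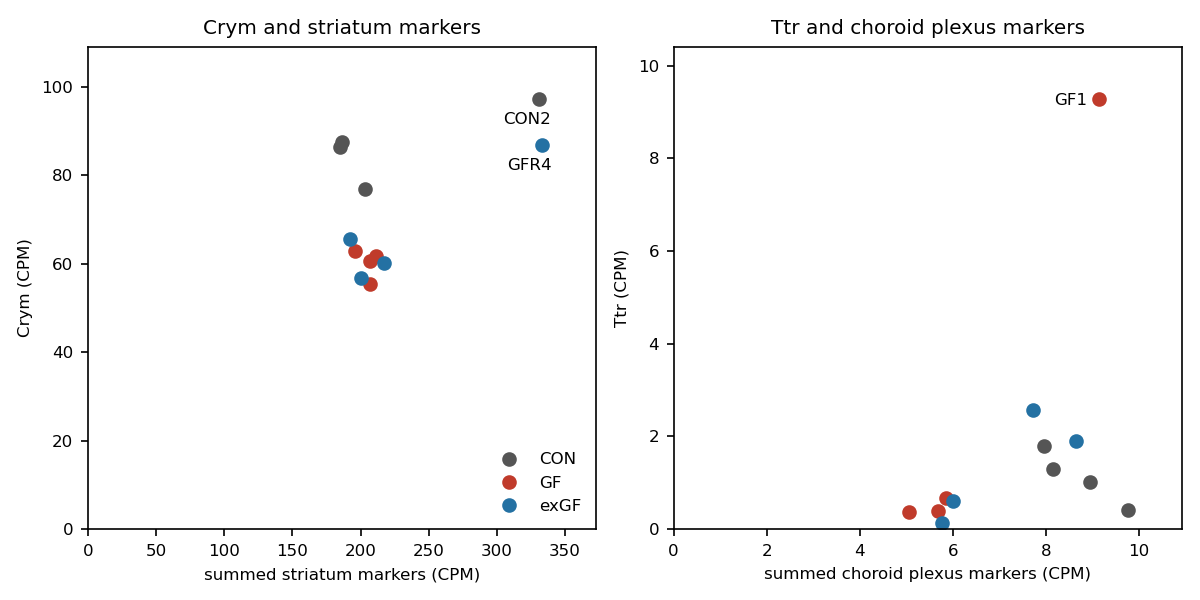
Left, level of Crym (y axis, CPM) against the summed level of 8 striatum markers (x axis, CPM); right, level of Ttr (y axis, CPM) against the summed level of 11 choroid plexus markers (x axis, CPM). Each point is 1 library, and CON2, GF1 and GFR4 name CON replicate 2, GF replicate 1 and the exGF library GFR4. CON2 and GFR4 stand apart at 331 and 333 CPM of striatum markers, and GF1 stands apart at 9.29 CPM of Ttr.

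Slco1c1 (ENSMUSG00000030235, chr6:141524368-141570177), which encodes the thyroxine transporter of brain endothelium and astrocytes, had nearly the same mean in the 3 groups. Its levels were 93.7 ± 16.9 CPM in CON, 94.6 ± 8.89 CPM in GF and 91.5 ± 5.23 CPM in exGF mice. The widest spread was in CON mice, from 72.9 to 113 CPM, and all GF and exGF libraries lay inside it. The log2 difference from CON mice was 0.01 (SE 0.12, 95% interval -0.24 to 0.27) in GF and -0.04 (SE 0.12, 95% interval -0.31 to 0.22) in exGF mice. Between exGF and GF mice it was -0.05 (SE 0.09, 95% interval -0.24 to 0.14). Summed markers of the cells that use this transporter had overlapping ranges as well. Endothelium markers came to 365 to 420 CPM in CON, 392 to 429 CPM in GF and 397 to 433 CPM in exGF libraries. Astrocyte markers came to 3844 to 4338, 3892 to 4282 and 3586 to 4167 CPM in the same order. Most of the astrocyte sum came from Slc1a2, with a mean of 2640 CPM in CON mice.

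Dio2 (ENSMUSG00000007682, chr12:90724552-90738438), the activating deiodinase, varied more among GF libraries than between groups. Its levels were 151, 129, 116 and 120 CPM in CON replicates 1 to 4, and 108, 157, 129 and 171 CPM in GF replicates 1 to 4. In GFR1 to GFR4 they were 146, 141, 127 and 102 CPM. GF mice held both the highest value and the second lowest, after GFR4, and the groups overlapped. The log2 difference was 0.14 (SE 0.13, 95% interval -0.15 to 0.42) in GF and -0.01 (SE 0.12, 95% interval -0.26 to 0.25) in exGF mice, both against CON mice. Between exGF and GF mice it was -0.13 (SE 0.14). Tanycytes, which line the third ventricle, are another known source of Dio2, and markers of ependyma and tanycytes summed to 4.94 to 10.1 CPM in CON, 6.44 to 9.22 CPM in GF and 4.36 to 6.36 CPM in exGF libraries. The tanycyte factor Rax held at most 1 count in any library. Of the exon bases of Dio2, 100 (1.72%) are shared with Gm26512 on the other strand, where the counts could not tell the genes apart.

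Crym (ENSMUSG00000030905, chr7:120186380-120202111 on the minus strand) encodes mu-crystallin, an enzyme of ketimine metabolism that binds triiodothyronine in the cytosol. Its levels were 87.6, 97.3, 76.9 and 86.3 CPM in CON replicates 1 to 4. They were 55.5, 60.5, 61.8 and 62.8 CPM in GF replicates 1 to 4, and 60.2, 56.8, 65.5 and 86.9 CPM in GFR1 to GFR4. GF libraries were closely grouped and all below the lowest CON library, GFR1 to GFR3 lay between 56.8 and 65.5 CPM, and GFR4 was inside the CON range. All GF below all CON libraries was seen for 1 of 8 members, against 2.55% of all genes tested.

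Between GF and CON mice Crym was lower by a log2 value of -0.53 (SE 0.09, 95% interval -0.72 to -0.34). Its unscaled counts were 747 to 1353 per GF library and 2137 to 2283 per CON library, and most GF libraries were shallower than the CON libraries. Crym ranked 22 among 15542 genes by p, with an adjusted p of 0.0242 in edgeR's quasi-likelihood fit of the whole table (0.135% of genes called lower). As Crym was listed with this value known, the p is a description. Over the alternatives the adjusted p was 1.50e-05 to 0.115, and the call was lost (0.115) when edgeR was fitted to all 12 libraries at once. In exGF mice the log2 difference from CON mice was -0.38 (SE 0.13, 95% interval -0.66 to -0.10), with an adjusted p of 0.726, and without GFR4 it was -0.51 (SE 0.10), with an adjusted p of 0.201. Between exGF and GF mice it was 0.16 (SE 0.12, 95% interval -0.10 to 0.43), and 0.02 without GFR4.

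GFR4 also stood apart in other genes. Crym is known to be high in parts of the striatum, a region close to the medial PFC, and 8 striatum markers such as the dopamine receptors Drd1 and Drd2 were summed in each library. The sum was 186, 331, 203 and 185 CPM in CON replicates 1 to 4 and 196 to 211 CPM in the GF libraries. In GFR1 to GFR4 it was 217, 200, 192 and 333 CPM. CON replicate 2 and GFR4, the libraries with the highest sums, held the highest Crym of their groups, at 97.3 and 86.9 CPM. The other 3 CON libraries had sums of 185 to 203 CPM and 76.9 to 87.6 CPM of Crym, and the GF libraries had sums of 196 to 211 CPM and 55.5 to 62.8 CPM of Crym. With CON replicate 2 and GFR4 left out, the exGF difference from CON mice was -0.45, with an adjusted p of 0.343 in edgeR. Most of the sum came from Ppp1r1b and Pde10a, with means of 96.7 and 56.9 CPM in CON mice. Drd1 and Drd2 had means of 14.4 and 2.05 CPM there, so the sum says little of these. Between GF and CON mice 7 of the 8 markers had a negative and 1 a positive log2 difference. Their median was -0.33, beside 0.01 over all genes, and 0 were called. The part of striatal RNA in the levels of Crym was not tested.

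Thra (ENSMUSG00000058756, chr11:98740638-98769006), the receptor that predominates in brain and of which one splice form does not bind hormone, had the highest level of the members. Its levels were 958, 1004, 834 and 829 CPM in CON replicates 1 to 4, and 777, 872, 814 and 770 CPM in GF replicates 1 to 4. The exGF libraries GFR1 to GFR4 held 698, 741, 756 and 871 CPM. GFR1 to GFR3 were below every CON library and GFR4 was not, which is the same division of the exGF libraries as for Crym. The log2 difference was -0.17 (SE 0.08, 95% interval -0.34 to 0.01) in GF and -0.25 (SE 0.09, 95% interval -0.45 to -0.04) in exGF mice, both against CON mice, and neither was called. Between exGF and GF mice it was -0.07 (SE 0.08). CON replicate 2 and GFR4 again held the highest values of their groups, and without both the exGF difference was -0.24 (SE 0.09). The last exons of Thra overlap Nr1d1, the clock repressor Rev-erb alpha, which is read from the other strand. Of the exon bases of Thra, 263 (5.70%) are shared. The counts ignored strand, and counts in several genes were left out. Nr1d1 itself stood at 92.2 CPM in CON and 120 CPM in GF mice.

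Thrb (ENSMUSG00000021779, chr14:17660261-18038090), the receptor of pituitary feedback and of some cortical neurons, gave no difference that passed the test. Its levels were 65.1 ± 6.24 CPM in CON, 61.5 ± 5.73 CPM in GF and 61.3 ± 6.35 CPM in exGF mice, with ranges of 57.6 to 71.6, 54.3 to 68.4 and 55.9 to 70.3 CPM. The groups overlapped over most of their range. Its log2 difference from CON mice was -0.08 (SE 0.10, 95% interval -0.29 to 0.13) in GF and -0.09 (SE 0.10, 95% interval -0.31 to 0.12) in exGF mice, and between exGF and GF mice -0.01 (SE 0.10). Per kilobase, Thra exceeded Thrb 22.7 ± 4.41 times in CON, 21.2 ± 1.24 times in GF and 20.3 ± 3.40 times in exGF mice. This ratio ranged from 16.9 to 28.0 over the 12 libraries.

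**Figure D3:**
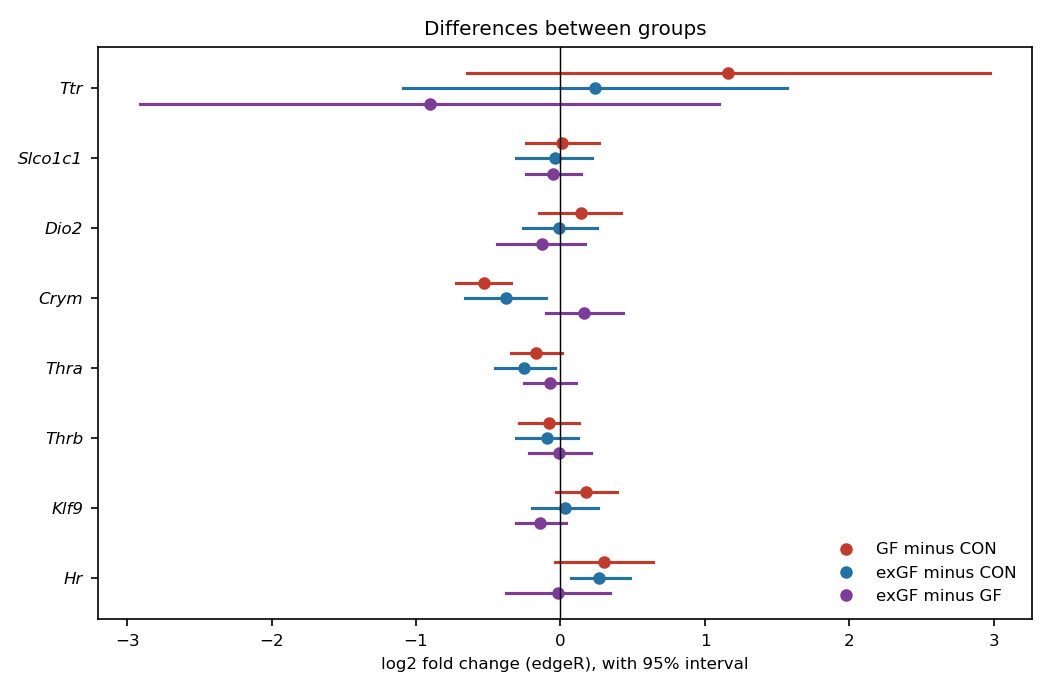
Log2 fold changes of the 8 genes (x axis) with 95% intervals from edgeR, for GF minus CON, exGF minus CON and exGF minus GF mice, 4 libraries in each group. The interval of Crym lies below 0 for GF minus CON (-0.72 to -0.34), and the intervals of Ttr are the widest in each comparison (-2.91 to 1.10 for exGF minus GF).

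Klf9 (ENSMUSG00000033863, chr19:23141226-23168134), which is induced directly by triiodothyronine and also by glucocorticoids, was 143 ± 20.5 CPM in CON, 162 ± 6.86 CPM in GF and 147 ± 11.1 CPM in exGF mice. The CON libraries were 139, 115, 159 and 158 CPM in replicates 1 to 4, and the GF libraries ranged from 153 to 170 CPM. The levels of GFR1 to GFR4 were 156, 154, 146 and 132 CPM. CON replicate 2 and GFR4, high in Crym, held the lowest Klf9 of their groups. The log2 difference was 0.18 (SE 0.10, 95% interval -0.03 to 0.39) in GF against CON mice, and 0.09 (SE 0.08) without CON replicate 2. It was 0.03 (SE 0.11) in exGF against CON mice and -0.14 (SE 0.08) in exGF against GF mice.

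Hr (ENSMUSG00000022096, chr14:70552212-70573548), the hairless corepressor and a known target of thyroid hormone in cortex, was the tightest member in CON mice. Its levels were 37.3, 34.5, 37.0 and 34.2 CPM in CON replicates 1 to 4, a coefficient of variation of 4.47%. They were 63.2, 32.8, 44.0 and 37.0 CPM in GF replicates 1 to 4, with a coefficient of variation of 30.4%, and 42.8, 47.1, 46.2 and 37.4 CPM in GFR1 to GFR4. GF libraries spanned the lowest and the highest value of all 12. All 4 exGF libraries were above all CON libraries, GFR4 by 37.4 against 37.3 CPM, and this held for 1 of 8 members against 1.78% of all genes tested.

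The log2 difference of Hr was 0.30 (SE 0.16, 95% interval -0.04 to 0.64) in GF against CON mice, and 0.07 (SE 0.11) without GF replicate 1, which held 63.2 CPM. In exGF against CON mice it was 0.27 (SE 0.09, 95% interval 0.07 to 0.48), and between exGF and GF mice -0.02 (SE 0.17). GF replicate 1 was the shallowest library and the highest in both Hr and Ttr. It also held the lowest GF level of Crym, Dio2 and Thrb.

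The genes whose levels followed those of single members most closely over the 12 libraries were listed, as a description without a test. Pearson's r of log2 CPM was taken against 11422 other genes, or 11423 for Ttr. For Crym these were Mapk3 (0.963), Col23a1 (0.942), Tmem130 (0.937), Rnf41 (0.937) and Pcolce (0.924). For Hr they were Nat8l (0.930), Vamp1 (0.928), Camkk2 (0.912), Map6d1 (0.906) and Parva (0.902). For Klf9 they were Neto1 (0.941), Atf6 (0.941), Kif5b (0.934), 5330434G04Rik (0.930) and Usp12 (0.917). For Ttr, where 1 library outweighs the others, the named genes are Ppt2 at 0.873, Tpcn1 at 0.863, Aldh7a1 at 0.843 and Akt1 at 0.839. Among the members, r was 0.79 for Crym with Thra, -0.72 for Crym with Klf9 and -0.68 for Thra with Klf9. Crym with Hr gave -0.63. The libraries share their groups, depth and scaling in each of these values.

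The rest of the pathway was represented by 43 other genes in 4 lists, of which 40 were tested. The liver deiodinase Dio1 and the blood carrier Serpina7 had 0 counts in every library, and albumin (Alb), another blood carrier, had at most 4. In edgeR 0 of the 40 were called in each of the 3 comparisons. At an unadjusted p under 0.05 were 12 of 40 between GF and CON mice, where 8.69% of all genes tested were, 8 of 40 between exGF and CON mice (5.33%) and 1 of 40, Reln, between exGF and GF mice (6.65%). The median log2 difference over the 40 was 0.02 in GF and 0.04 in exGF mice against CON mice, beside 0.01 and -0.01 over all genes.

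Among the transporters and deiodinases, 0 of the 7 tested genes were called between GF and CON mice. Their log2 differences were -1.23 to 0.33, with a median of 0.05. An unadjusted p under 0.05 was seen for 2 of the 7, against 8.69% of all genes tested. Dio3, the deiodinase that inactivates both hormones, had the most negative value at -1.23 (SE 0.50), with an adjusted p of 0.490 in edgeR. Its levels were 1.85, 2.98, 2.15 and 1.87 CPM in CON replicates 1 to 4 and 0.149, 1.79, 1.40 and 0.220 CPM in GF replicates 1 to 4, on 2 to 40 counts in GF. In GFR1 to GFR4 they were 0.994, 1.04, 1.13 and 1.91 CPM. All GF libraries were below all CON libraries, as for 2.55% of all genes tested. The nearest values were 1.79 CPM in GF and 1.85 CPM in CON mice, and 2 of the GF libraries held under 5 counts. Dio3 differed by -0.80 (SE 0.27) in exGF against CON mice, with an adjusted p of 0.726. Meninges markers moved in the same direction. Their 7 genes summed to 170 to 238 CPM in CON, 112 to 149 CPM in GF and 130 to 174 CPM in exGF libraries. Of the 7, 2 (Slc6a13 and Col1a2) were called lower in GF than in CON mice, against 0.135% of all genes tested. The part of meninges in these values was not tested. Slco1a4, another organic anion transporter of brain endothelium, differed by 0.33 (SE 0.13) in GF and 0.42 (SE 0.11) in exGF mice against CON mice.

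Of the 13 receptor partners and coregulators, 0 were called between GF and CON mice. Their log2 differences were -1.08 to 0.13, with a median of -0.03. An unadjusted p under 0.05 was seen for 1 of the 13, against 8.69% of all genes tested. The 1 gene was Rxrg, a retinoid X receptor that pairs with thyroid hormone receptors and is known in striatal neurons. Its levels were 7.71, 11.8, 5.52 and 4.00 CPM in CON replicates 1 to 4 and 2.01, 4.12, 3.01 and 4.35 CPM in GF replicates 1 to 4. The values of GFR1 to GFR4 were 3.06, 3.80, 3.95 and 9.46 CPM. CON replicate 2 and GFR4, with the highest striatum sums of 331 and 333 CPM, were also the highest in Rxrg, and the groups overlapped. The difference was -1.08 (SE 0.31), with an adjusted p of 0.269 in edgeR and 0.0546 in DESeq2 on the same 8 libraries. Med1, a Mediator subunit that receptors contact, at -0.13 (SE 0.09) and Tbl1xr1, a part of the NCoR corepressor complex, at 0.13 (SE 0.09) were next by p.

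**Figure D4:**
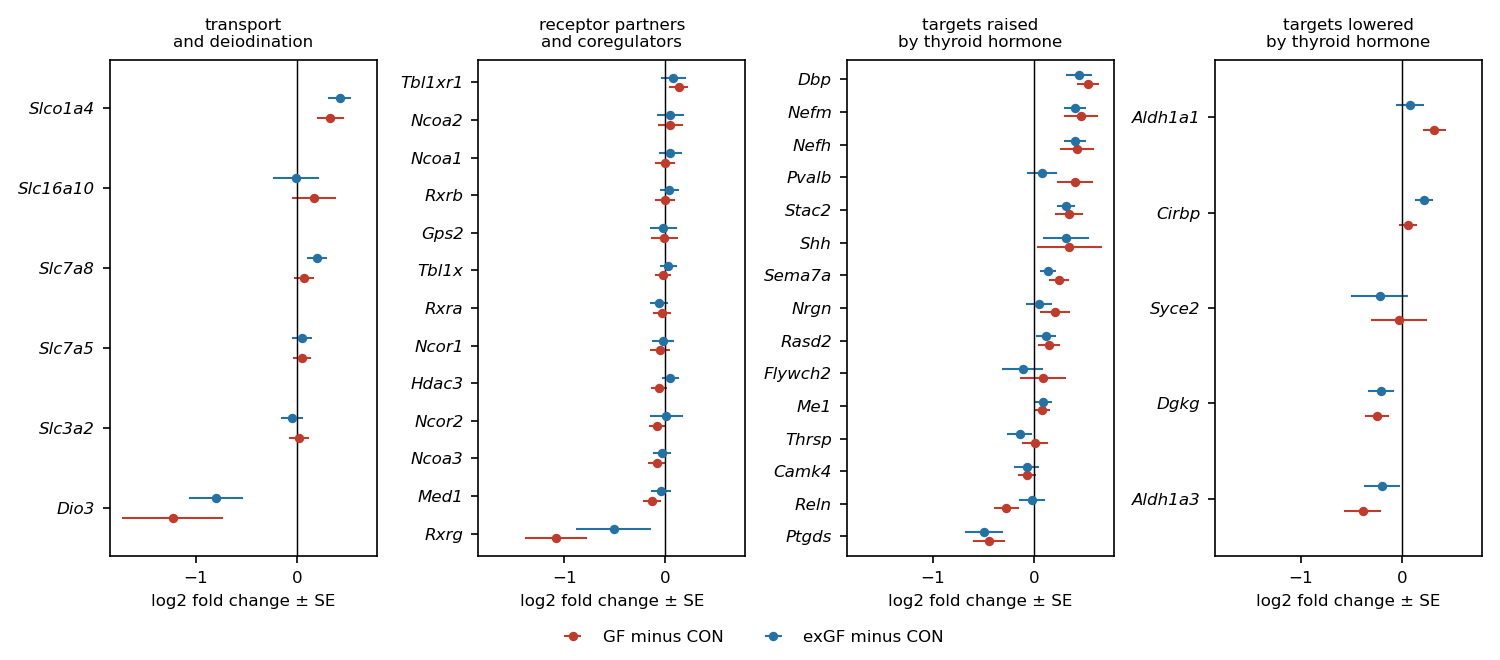
Log2 fold changes ± SE from edgeR (x axis) of other thyroid hormone genes tested, in 4 lists, for GF minus CON and exGF minus CON mice, 4 libraries in each group. None of those drawn was called in either comparison, and the widest departures from 0 are those of Dio3 (-1.23) and Rxrg (-1.08) in GF mice.

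Among 15 cortical genes known to be raised by thyroid hormone, 12 had a positive and 3 a negative log2 difference between GF and CON mice. Their median was 0.21, beside 0.01 over all genes. An unadjusted p under 0.05 was seen for 8 of the 15, against 8.69% of all genes tested, and 0 were called by edgeR. Dbp, a transcription factor of clock output, differed by 0.54 (SE 0.11), with an adjusted p of 0.110 in edgeR, 0.00476 in DESeq2 on the same 8 libraries and 0.0963 in limma-voom. Its levels were 27.3, 26.8, 21.1 and 20.9 CPM in CON replicates 1 to 4 and 37.9, 35.1, 31.5 and 35.5 CPM in GF replicates 1 to 4. In GFR1 to GFR4 they were 30.5, 28.5, 32.7 and 40.1 CPM. All GF libraries were above all CON libraries for Dbp, 1 of the 15, as for 2.53% of all genes tested. All exGF libraries were above all CON libraries for 4 of the 15, Dbp among them, as for 1.78% of all genes tested. Nefm, a neurofilament subunit of large axons, differed by 0.47 (SE 0.17) and Ptgds, the prostaglandin D synthase of oligodendrocytes and meninges, by -0.44 (SE 0.16). In exGF against CON mice the median of the 15 was 0.09, beside -0.01 over all genes. An unadjusted p under 0.05 was seen there for 5 of the 15, against 5.33% of all genes tested. These were Dbp (0.45, SE 0.13), Nefm (0.41, SE 0.11), Nefh (0.41, SE 0.11), Stac2 (0.32, SE 0.09) and Ptgds (-0.49, SE 0.19). Of the 5 tested genes known to be lowered by thyroid hormone, 0 were called, with a median of -0.03 in GF and -0.20 in exGF mice. The retinaldehyde dehydrogenases Aldh1a1 (0.32, SE 0.11) and Aldh1a3 (-0.39, SE 0.18) had opposite signs in GF mice, and the diacylglycerol kinase Dgkg stood at -0.25 (SE 0.12).

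Genes of the clock and of glucocorticoid response share members or regulators with the thyroid hormone targets, since Dbp is a clock gene and Klf9 answers to both hormones. Of 9 clock output genes, Dbp included, all had positive log2 differences between GF and CON mice, with a median of 0.38. An unadjusted p under 0.05 was seen for 7 of the 9, against 8.69% of all genes tested. All GF libraries were above all CON libraries for 4 of the 9, against 2.53%. Summed, the clock genes came to 679 to 740 CPM in CON, 796 to 916 CPM in GF and 794 to 852 CPM in exGF libraries. By edgeR 1 of the 9 was called, against 0.251% of all genes tested. That was Ciart, a repressor of the clock, at 0.84 (SE 0.15), from 6.90 to 12.3 CPM, with an adjusted p of 0.0315 in edgeR. Hlf (0.33, SE 0.08) and Nr1d1 (0.38, SE 0.09), with adjusted p of 0.159 each, were not called. Of 10 glucocorticoid-responsive genes 0 were called and 3 had an unadjusted p under 0.05 between GF and CON mice, with a median of 0.14. These were Per1 (0.59, SE 0.13), Tsc22d3 (0.41, SE 0.09) and Sgk1 (0.42, SE 0.12), with adjusted p of 0.119, 0.125 and 0.244 in edgeR. Per1 was counted in this list only, although the other Per genes were in the clock list. In exGF against CON mice the medians were 0.24 for the clock genes and -0.02 for the glucocorticoid genes. The part of clock phase or glucocorticoids in the values of Dbp and Klf9 was not tested.

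Markers of the cortical cells in which the members act were summed to check the tissue. Cortical projection neuron markers came to 1778 to 1959 CPM in CON, 1904 to 2108 CPM in GF and 1883 to 2041 CPM in exGF libraries. Upper layer markers came to 956 to 1126, 987 to 1262 and 888 to 1236 CPM, and deep layer markers to 178 to 217, 146 to 211 and 153 to 219 CPM. Most of the projection neuron sum came from Slc17a7 and most of the upper layer sum from Mef2c. Their means were 1411 and 633 CPM in CON mice, so these sums say little of the other markers. Microglia markers summed to 327 to 384, 297 to 336 and 284 to 303 CPM, so that all exGF sums were below all CON sums. Between exGF and CON mice 5 of the 6 markers had an unadjusted p under 0.05, against 5.33% of all genes tested, and 0 were called by edgeR. Oligodendrocyte markers were at 1799 to 2885 CPM in GF libraries, against 1113 to 1451 CPM in CON and 1063 to 1820 CPM in exGF libraries. Of these 8 markers, 5 were called higher in GF than in CON mice, Mog, Mobp, Cldn11 and Ermn among them. Of all genes tested, 0.251% were called in either direction. All 8 had an unadjusted p under 0.05. Their part in the member levels was not tested.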

How the data were processed

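RNA-seq of 12 PFC libraries was analysed from the deposited table of raw counts per gene, which the authors made from stranded polyA libraries with Trimmomatic 0.32, STAR and HTSeq 0.6.0 on GRCm38.p3, without regard to strand. Counts outside genes (4.57% to 7.31%), in several genes (1.10% to 1.32%) or at several places (13.0% to 19.2%) were left out. Names, positions and exon lengths came from a GRCm38 annotation, and 40340 of 41388 genes had a symbol.

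For each pair of groups, genes passing filterByExpr were scaled by TMM and tested in edgeR 4.0.16 (R 4.3.3) by the quasi-likelihood test, adjusted by Benjamini-Hochberg over all of them, and called under 0.1. The script was tested on simulated data. Alternatives were RLE scaling, no filter, at least 10 counts in every library, DESeq2 1.42.0, limma-voom 3.58.1, edgeR on all 12 libraries, a replicate block, a threshold of 0.05 and each library left out. Replicates are pools, so p-values measure the spread between pools.

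The members and lists were chosen with earlier results of these data known. Named were all members, genes called in any list of the pathway, clock or glucocorticoid genes, the 3 of each list with the smallest p in GF against CON, and the 5 genes most correlated with Crym, Hr, Klf9 and Ttr (mean CPM of at least 5, prior count 1). Nr1d1, marker genes and those under an unadjusted 0.05 were named besides, after their values were seen. Some genes that this rule names are not reported here.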

Additional observations from a re-analysis of the deposited data

Results flagged for a closer look

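Ttr stood at 9.29 CPM in GF replicate 1, far above the other 3 GF libraries (0.376 to 0.671 CPM), with a gap to the nearest of them above the 95% critical value of Dixon's test for 4 samples. It was the 1 value so marked among 24 sets of a member and a group, where chance marks about 1 set in 20.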

How the results depend on the processing

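Of 372 fold changes of the 8 members under the alternatives, 369 kept the call of Crym or, for values not called, moved by less than the spread between replicates. That spread is wide for Ttr, whose difference between GF and CON mice went from 1.16 to -0.13 in limma-voom. Ttr moved further in 2, both without GF replicate 1, and Crym lost its call in 1, where edgeR was fitted to all 12 libraries (adjusted p 0.115, 0 members called). Signs changed in 30 cases, all among values that were not called.

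Between GF and CON mice 39 genes were called, and 221 without a filter, 195 by DESeq2 on 8 libraries, 163 by DESeq2 on all 12 and 27 (without CON replicate 3) to 60 (without GF replicate 2) with a library left out. Of the other thyroid hormone genes, 0 were called, and 3 without a filter, 2 and 1 by DESeq2, 1 by limma-voom, 1 with the replicate block and 0 to 2 with a library left out, 2 of them Nefh and Nefm without GF replicate 2. For exGF against CON mice 11 genes were called, and 48 without a filter, 7 with at least 10 counts everywhere, 52 and 50 by DESeq2 on 8 and 12 libraries, 8 to 14 with a library left out, and 17 without CON replicate 2 and GFR4, a choice made after seeing the data. For exGF against GF mice 0 genes were called, with 1035 at an unadjusted p under 0.05, and 32 without a filter, 14 and 12 by DESeq2, 2 by edgeR on all 12 libraries and 0 to 7 with a library left out (7 without GFR1, 6 without GFR4, 2 without GF replicate 4). The causes were not tested.

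Replicate numbers did not pair the samples: deviations of same-numbered CON and GF libraries correlated at -0.03, -0.05, -0.04 and 0.03. With the replicate number as a block 51 genes were called, among them Crym (adjusted p 0.0857). Depth limits Ttr and Dio3, at 2 to 125 counts.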
